A study of Mus musculus with 12 samples.

Results

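Elastic fibre genes were followed in mouse left ventricle through 10 members, namely Fbn1, Eln, Fbln1, Fbln2, Fbln5, Efemp1, Mfap4, Mfap5, Emilin1 and Ltbp2. The members were the rows of the deposited count table that carry these symbols, 10 of 29564 genes in the table, and 10 of 10 passed the filter on low counts that left 14333 genes to test. Each group held 4 WT mice of strain C57BL6 (the study's methods name male C57BL/6J mice), and every mouse gave a library of poly(A) RNA. Non-failing mice received vehicle (Control + Veh, libraries C1 to C4). HFpEF + Veh mice (V1 to V4) carried the HFD/L-NAME model of HFpEF, a heart failure in which the ejection fraction is preserved; in this model a high-fat diet is combined with L-NAME, an inhibitor of nitric oxide synthases. These mice also received vehicle. HFpEF + TYA-018 mice (T1 to T4) carried that model and received TYA-018, an inhibitor of the cytoplasmic deacetylase HDAC6, orally at 15 mg/kg. The series title gives a single dose, and the paper describes hearts taken within hours of a single dose of vehicle or compound, while the label's protocol gives daily doses over weeks. The sources thus differ on the length of exposure behind every TYA-018 value. Diet and L-NAME were always given together and TYA-018 was given to no mouse outside the model, so neither the diet, L-NAME nor the compound on its own was measured. Sex and age at collection are not in the labels.

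Elastic fibres give arteries, valves and the myocardial interstitium their recoil. Fibrillin microfibrils form a scaffold, on which fibulins and microfibril-associated proteins gather tropoelastin before lysyl oxidases cross-link it, and latent TGF-beta binding proteins anchor stored growth factor to the same scaffold. In the heart these proteins are made largely by fibroblasts and by the smooth muscle of vessels. The study compared the 3 groups to ask how the model changes the left ventricle and how HDAC6 inhibition changes it in turn, and here that question was put to the genes of this fibre.

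Of the 10 members, 7 were found in the RefSeq table of gene starts (GRCm38.p6). The 249 bases before the start are shown for 3 members that stand for different outcomes below: Fbln5 was called in both of the first comparisons, Efemp1 was called after TYA-018 and not in the model against control, and Fbln1 was called in neither. The Fbln5 stretch lies at chr12:101819121-101819369 on the minus strand, the Efemp1 stretch at chr11:28852955-28853203 on the plus strand and the Fbln1 stretch at chr15:85205699-85205947 on the plus strand, and none of them overlaps an annotated exon or gene of GENCODE M21. Each is written 5′ to 3′ on the strand of its gene.
Fbln5: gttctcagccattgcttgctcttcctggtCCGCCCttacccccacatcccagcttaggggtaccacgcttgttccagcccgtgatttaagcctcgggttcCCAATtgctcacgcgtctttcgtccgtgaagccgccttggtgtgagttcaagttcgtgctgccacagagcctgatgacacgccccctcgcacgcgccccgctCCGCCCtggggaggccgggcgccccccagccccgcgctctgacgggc
Efemp1: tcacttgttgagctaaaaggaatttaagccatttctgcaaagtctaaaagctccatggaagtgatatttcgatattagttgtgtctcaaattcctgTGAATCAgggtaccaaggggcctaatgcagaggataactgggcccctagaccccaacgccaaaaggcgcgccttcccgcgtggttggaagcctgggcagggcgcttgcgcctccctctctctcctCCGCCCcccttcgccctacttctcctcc
Fbln1: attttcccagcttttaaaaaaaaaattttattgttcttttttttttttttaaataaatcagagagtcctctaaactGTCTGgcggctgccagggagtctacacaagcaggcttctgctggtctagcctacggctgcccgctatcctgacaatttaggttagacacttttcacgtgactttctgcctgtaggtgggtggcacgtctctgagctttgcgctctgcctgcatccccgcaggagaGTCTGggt
Capitals mark matches, on either strand, to any of 6 motifs that were searched and that do not overlap in these stretches. The TATA box was searched as TATAAA and the CCAAT box as its own letters. The GC box, bound by Sp1, was searched as GGGCGG. The SMAD element, of the TGF-beta pathway, was searched as CAGAC. The AP-1 site was searched as TGANTCA. The TEAD site, of the Hippo pathway, was searched as GGAATG. The Fbln5 stretch held 2 GC boxes and 1 CCAAT box, the Efemp1 stretch 1 GC box and 1 AP-1 match, and the Fbln1 stretch 2 SMAD elements. Of 32851 windows of this length before gene starts, 32.6% held the GC box, 33.8% the CCAAT box, 6.74% the AP-1 site, 42.1% the SMAD element, 12.4% the TATA box and 12.6% the TEAD site. No match to the TATA box or the TEAD site was present in the 3 stretches. The G and C content was 65.5% for Fbln5, 53.4% for Efemp1 and 46.2% for Fbln1, against a median of 52.2% over all windows. A match here is a description of letters, and binding was not measured.

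The libraries held 61.2 to 83.9 M estimated counts, so that the least abundant member, Fbln5, still rested on 54.4 to 213 estimated counts in a library. Mitochondrially encoded genes took 37.0% to 40.6% of counts in Control + Veh, 43.1% to 47.7% in HFpEF + Veh and 35.4% to 41.2% with TYA-018. The 8 cardiomyocyte markers summed to 25485 CPM or more in every library, while the atrial marker Sln was too low to be tested. Library C1 stood apart for these genes: it was the highest Control + Veh library for 9 of 10 members, and it also had the highest summed fibroblast markers (699 CPM, against 480 to 530 in C2 to C4) and the lowest summed cardiomyocyte markers (27490 CPM, against 33753 to 38574). Values without C1 are therefore given where they differ. The labels give no batch, and the animal numbers of each group lie together, so cage, date or order of handling cannot be told apart from the group.

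Most elastic fibre genes were higher in the model. In HFpEF + Veh against Control + Veh, 6 of 10 members were called higher (Fbn1, Fbln2, Fbln5, Mfap4, Mfap5 and Emilin1) and 0 lower by edgeR's quasi-likelihood test at a Benjamini-Hochberg adjusted p under 0.05, beside 10.9% of all tested genes called higher. The log2 fold change was positive for 10 of 10 members, with a median of 0.62 and a range of 0.23 (Efemp1) to 1.30 (Fbln5), against a median of -0.01 over all tested genes. In 4 members (Fbn1, Fbln2, Fbln5 and Mfap5) every HFpEF + Veh library lay above every Control + Veh library, beside 12% of all tested genes. On the deposited TPM scale, log2(TPM + 1), Efemp1 alone among the 10 turned negative (-0.13), while all genes had a median of -0.07 on that scale, and limma called 1 of 10 there, Mfap5, beside 1.2% of all tested genes in either direction (21.2% in edgeR). On TPM rescaled over detected nuclear protein-coding genes, as the study did, 10 of 10 were positive (Efemp1 at 0.11) and limma called 4 (Fbn1, Fbln5, Mfap4 and Mfap5), beside 7.91% of all genes. DESeq2 called 8, adding Fbln1 and Ltbp2, beside 26.2%. The RNA came from bulk left ventricle, in which fewer cells of a type and less RNA per cell cannot be told apart.

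After TYA-018 most of them were lower than in vehicle-treated model hearts. In HFpEF + TYA-018 against HFpEF + Veh, edgeR called 6 of 10 members lower (Fbn1, Eln, Fbln2, Fbln5, Efemp1 and Mfap5) and 0 higher, beside 10.4% of all tested genes called lower. The log2 fold change was negative for 10 of 10 members, with a median of -0.55 and a range of -0.77 (Eln) to -0.14 (Fbln1), against 0.00 over all tested genes. In 5 members (Fbn1, Eln, Fbln2, Fbln5 and Mfap5) every TYA-018 library lay below every HFpEF + Veh library, beside 13.1% of all tested genes. These first 2 comparisons share the HFpEF + Veh libraries, so opposite signs in them are not independent of each other. On log2(TPM + 1) the median of all genes rose by 0.17 in this comparison, Fbln1 (0.33), Emilin1 (0.16), Fbln2 (0.02) and Mfap4 (0.01) turned positive, and Fbln1 was the only member above that median. On the rescaled TPM, with a median of -0.01 over all genes, 10 of 10 members were negative, with Fbln1 at -0.10, Emilin1 at -0.13, Fbln2 at -0.44 and Mfap4 at -0.42. The count of 6 became 0 by limma on log2(TPM + 1) (1 at an unadjusted p under 0.05), beside 16.02% of all genes called in either direction (19.3% in edgeR), 1 (Mfap5) on the rescaled TPM, beside 5.56%, and 2 (Fbn1 and Mfap5) in edgeR with effective lengths as offset, beside 8.49%. Leaving out V2 gave 3 (Fbn1, Eln and Mfap5), beside 14.4% of all tested genes called in either direction. Leaving out V4, T1 or T2 gave 2 (Fbn1 and Mfap5), beside 13.6%, 10.4% and 11.4%.

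**Figure D1:**
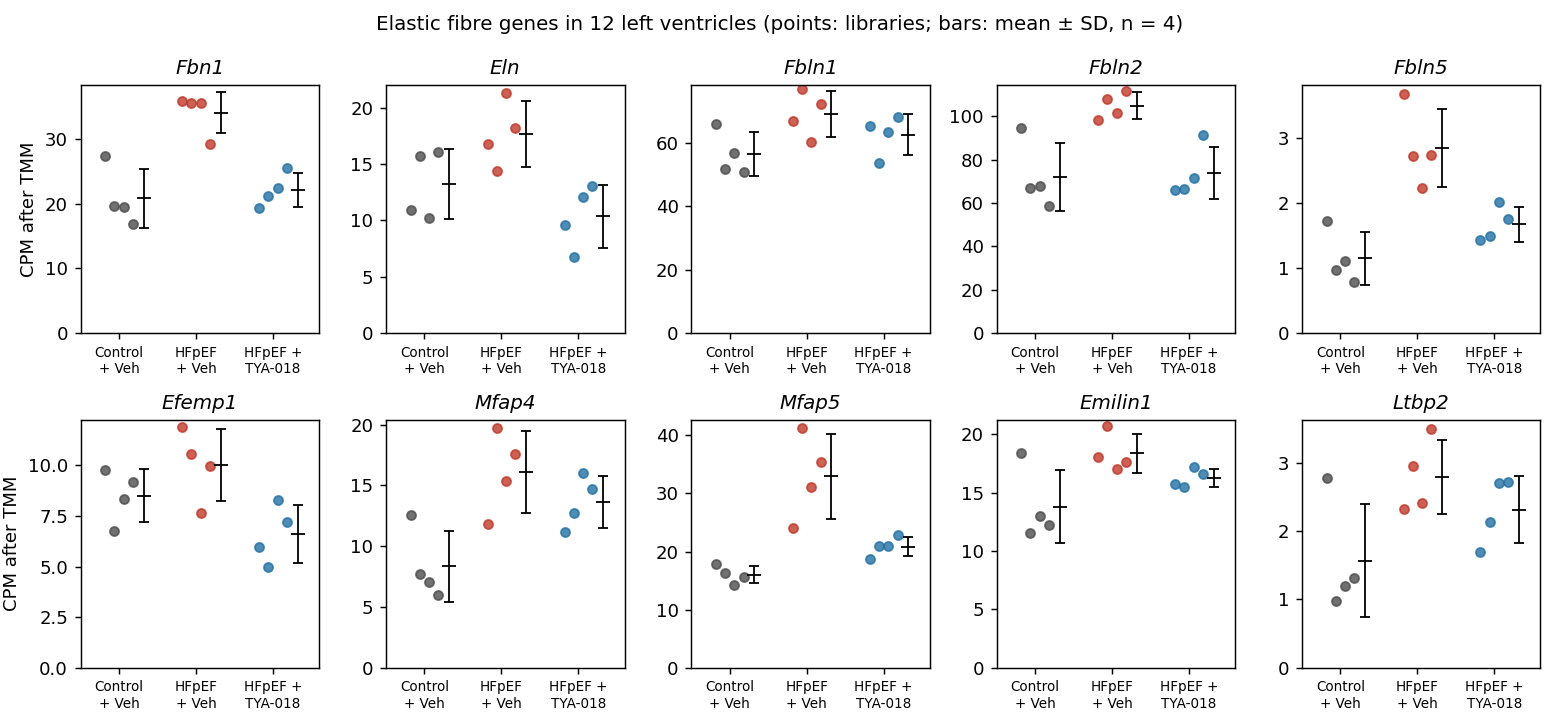
CPM after TMM scaling (vertical axis, from 0) of each of the 10 elastic fibre genes in the 4 libraries of each group (points, in replicate order from left to right), with the mean ± SD beside them. Fbn1, Fbln2, Fbln5 and Mfap5 show HFpEF + Veh libraries above all libraries of both other groups, and for Fbn1, Fbln2, Fbln5, Mfap4, Emilin1 and Ltbp2 the first Control + Veh library lies well above the other 3.

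The microfibril itself is built from fibrillin-1, encoded by Fbn1 (chr2:125300594-125507993, minus strand, GRCm38). Its level in CPM was 27.5, 19.7, 19.5 and 16.9 in C1 to C4, 35.98, 35.6, 35.6 and 29.3 in V1 to V4 and 19.4, 21.2, 22.5 and 25.6 in T1 to T4. All HFpEF + Veh libraries were above all other libraries, while the control and TYA-018 libraries overlapped. Fbn1 rose 1.63-fold in the model (log2 fold change 0.71, SE 0.14, adjusted p = 0.00455) and fell after TYA-018 (log2 -0.62, SE 0.14, adjusted p = 0.00951), and both calls were kept in 12 of 12 fits that left out a library. The other members here bind or sit along fibrillin: Mfap5, a microfibril-associated glycoprotein, Mfap4, a microfibril-binding glycoprotein that also binds tropoelastin and collagen, and Ltbp2, which resembles the latent TGF-beta binding proteins but does not bind latent TGF-beta.

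Mfap5 (chr6:122505845-122529290, plus strand) held 17.8, 16.3, 14.3 and 15.7 CPM in C1 to C4, 24.04, 41.3, 31.02 and 35.4 in V1 to V4 and 18.8, 20.9, 20.9 and 22.8 in T1 to T4. The 3 groups did not overlap, with controls lowest, TYA-018 in between and HFpEF + Veh highest, and V2 was the highest of all libraries. Mfap5 rose 2.06-fold in the model (log2 1.04, SE 0.14, adjusted p = 0.000784), the smallest adjusted p of the 10 members, and fell after TYA-018 (log2 -0.66, SE 0.14, adjusted p = 0.00722), in 12 of 12 fits each. It was also the 1 member that limma called in the model on log2(TPM + 1). Mfap4 (chr11:61485431-61488900, plus strand) held 12.6, 7.69, 7.06 and 5.998 CPM in C1 to C4, 11.8, 19.7, 15.4 and 17.6 in V1 to V4 and 11.2, 12.7, 16.04 and 14.7 in T1 to T4. V1 lay below C1, so the model and control groups overlapped by that pair, and the TYA-018 libraries lay within or just below the HFpEF + Veh range. Mfap4 rose in the model (log2 0.95, SE 0.22, adjusted p = 0.0111; 1.22 without C1) and was not called after TYA-018 (log2 -0.24, SE 0.22, adjusted p = 0.477; 0.01 on log2(TPM + 1)).

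Ltbp2 (chr12:84783212-84876532, minus strand) was among the least abundant members, with 2.78, 0.969, 1.198 and 1.31 CPM in C1 to C4, 2.32, 2.95, 2.42 and 3.49 in V1 to V4 and 1.699, 2.13, 2.697 and 2.71 in T1 to T4. C1 was far above the other 3 controls and lay inside the range of the model libraries. The log2 fold change in the model was 0.83 (SE 0.30, adjusted p = 0.0678), and without C1 it was 1.27 with an adjusted p of 0.00239, so in edgeR the call turned on that library. DESeq2 called Ltbp2 with all libraries (log2 0.84, adjusted p = 0.0274). After TYA-018 the log2 fold change of Ltbp2 was -0.28 (SE 0.30, adjusted p = 0.553). Its effective length varied 2.32-fold between libraries, which affects its TPM and not its count.

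The elastic core is made of elastin, encoded by Eln (chr5:134702593-134747323, minus strand). Eln held 10.9, 15.7, 10.2 and 16.02 CPM in C1 to C4, 16.8, 14.4, 21.3 and 18.2 in V1 to V4 and 9.56, 6.75, 12.04 and 13.1 in T1 to T4. The controls fell into a lower pair (C1 and C3) and a higher pair (C2 and C4), V2 lay among the controls, and all TYA-018 libraries were below all HFpEF + Veh libraries. Eln was not called in the model (log2 0.42, SE 0.21, adjusted p = 0.172) and was lower after TYA-018 (log2 -0.77, SE 0.21, adjusted p = 0.0251). That call was lost in 4 of 12 fits that left out a library (V3, V4, T1 or T2; adjusted p 0.0537 to 0.0715). Emilin1 (chr5:30913402-30921277, plus strand), a glycoprotein found where elastin meets the microfibrils, held 18.4, 11.5, 13.03 and 12.3 CPM in C1 to C4, 18.1, 20.7, 17.03 and 17.6 in V1 to V4 and 15.7, 15.5, 17.2 and 16.6 in T1 to T4. C1 exceeded 3 of the 4 HFpEF + Veh libraries, and the other 3 controls were the lowest libraries of the series. Emilin1 rose in the model (log2 0.41, SE 0.13, adjusted p = 0.0391), a call that was lost in 9 of 12 fits (0.0501 to 0.106) and strengthened without C1 (log2 0.58, adjusted p = 0.000881). After TYA-018 its log2 fold change was -0.18 (SE 0.13, adjusted p = 0.359), and 0.16 on log2(TPM + 1).

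The fibulins link tropoelastin to the scaffold and to the cell. Fbln5 (chr12:101746565-101819055, minus strand), whose product carries an integrin-binding motif and directs elastin onto microfibrils, held 1.72, 0.969, 1.104 and 0.788 CPM in C1 to C4, 3.66, 2.71, 2.23 and 2.73 in V1 to V4 and 1.42, 1.49, 2.005 and 1.76 in T1 to T4. All HFpEF + Veh libraries were above all others, and C1 lay within the TYA-018 range. Fbln5 had the largest fold change of the 10 members in the model, 2.47-fold (log2 1.30, SE 0.24, adjusted p = 0.00375), and fell after TYA-018 (log2 -0.76, SE 0.24, adjusted p = 0.0427), the second of which was lost in 7 of 12 fits (0.0576 to 0.118). Efemp1 (chr11:28853204-28926743, plus strand), or fibulin-3, held 9.75, 6.74, 8.36 and 9.19 CPM in C1 to C4, 11.9, 10.6, 7.63 and 9.96 in V1 to V4 and 5.99, 4.97, 8.29 and 7.22 in T1 to T4. T1, T2 and T4 were below every HFpEF + Veh library, and T3 was above V3. Efemp1 was not called in the model (log2 0.23, SE 0.17, adjusted p = 0.361; -0.13 on log2(TPM + 1)) and was lower after TYA-018 (log2 -0.60, SE 0.17, adjusted p = 0.0332), a call lost in 5 of 12 fits (0.0647 to 0.0927).

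Fbln1 and Fbln2 encode the larger fibulins, found in basement membranes and on elastic fibres, and were the most abundant members by CPM. Fbln2 (chr6:91212455-91272540, plus strand) held 94.8, 66.7, 67.9 and 58.5 CPM in C1 to C4, 98.1, 108, 101 and 112 in V1 to V4 and 65.7, 66.6, 71.5 and 91.1 in T1 to T4. All HFpEF + Veh libraries were above all others, with C1 and T4 the nearest below them. Fbln2 rose in the model (log2 0.54, SE 0.14, adjusted p = 0.0185; lost in 3 of 12 fits, those without C2, C3 or C4, at 0.0511 to 0.0552) and fell after TYA-018 (log2 -0.51, SE 0.14, adjusted p = 0.0272; lost in 5 of 12 fits at 0.0590 to 0.0814, and 0.02 on log2(TPM + 1)). Fbln1 (chr15:85205949-85286535, plus strand) held 65.97, 51.7, 56.7 and 50.8 CPM in C1 to C4, 66.9, 76.9, 60.2 and 72.2 in V1 to V4 and 65.3, 53.6, 63.4 and 68.2 in T1 to T4. The 3 groups overlapped, with V3 below C1 and T4 above V1 and V3. Fbln1 was called in neither comparison (log2 0.29, SE 0.10, adjusted p = 0.0625 in the model; log2 -0.14, SE 0.10, adjusted p = 0.3702 after TYA-018, and 0.33 on log2(TPM + 1)), and the first was called without C1 (log2 0.38, adjusted p = 0.0150), without V3 (adjusted p = 0.0455) and by DESeq2 with all libraries (adjusted p = 0.0274).

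**Figure D2:**
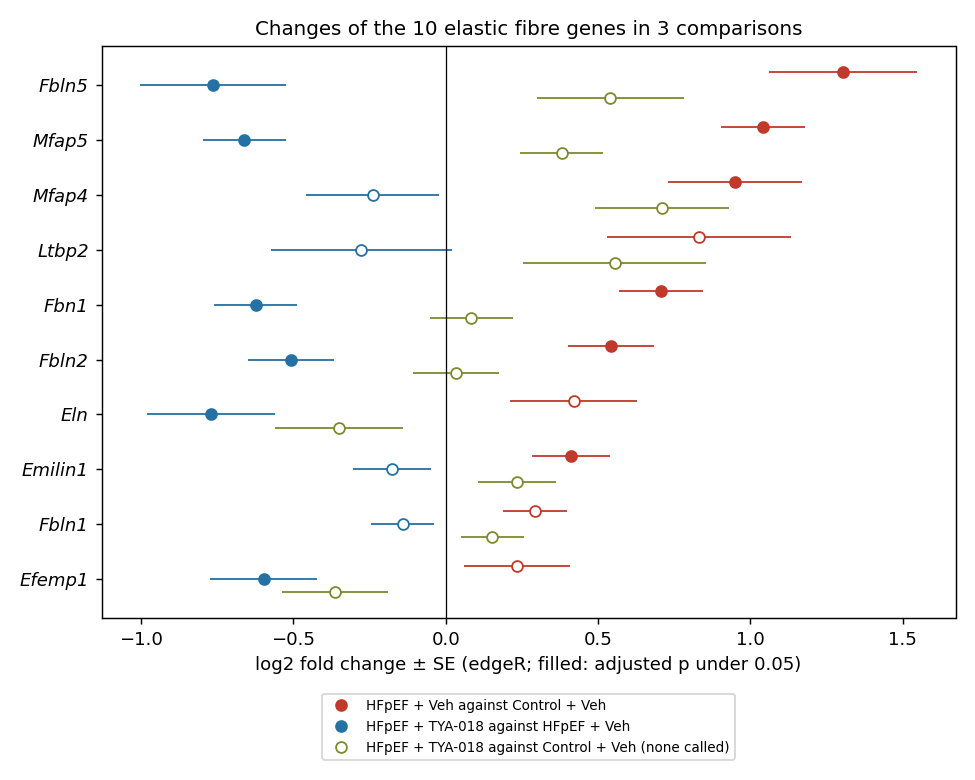
Log2 fold change ± SE (horizontal axis, edgeR) of the 10 elastic fibre genes in each of 3 comparisons, with filled points at an adjusted p under 0.05. In the model against control 10 of 10 points lie right of 0 and 6 are filled, after TYA-018 10 of 10 lie left of 0 and 6 are filled, and between TYA-018 and control none is filled; on log2(TPM + 1), a scale on which all genes had medians of -0.07 and 0.17 in the first comparisons, Efemp1 turned negative in the first and Fbln1, Fbln2, Emilin1 and Mfap4 turned positive in the second, and on the rescaled TPM none of these turned.

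None of the 10 genes passed the test between hearts given TYA-018 and control hearts. In HFpEF + TYA-018 against Control + Veh, edgeR called 0 of 10 members, beside 3.12% of all tested genes called higher, and 3 members (Fbln5, Mfap4 and Mfap5) had an unadjusted p under 0.05. DESeq2 called 1, Mfap4, beside 10.6% of all tested genes in either direction. Limma called 0 on log2(TPM + 1), beside 0.0628%. The log2 fold change was positive for 8 members and negative for Eln (-0.35) and Efemp1 (-0.36), with a median of 0.19 against -0.02 over all tested genes. The largest were Mfap4 at 0.71 (SE 0.22, adjusted p = 0.0803), Ltbp2 at 0.56 (SE 0.30, adjusted p = 0.304) and Fbln5 at 0.54 (SE 0.24, adjusted p = 0.211). Fbn1 (0.08, SE 0.14) and Fbln2 (0.03, SE 0.14) were nearest to 0. Mfap5 (0.38, SE 0.14, adjusted p = 0.125) was the 1 member whose TYA-018 libraries all lay above all controls, beside 7.76% of all tested genes. Without C1, 4 members were called higher, namely Mfap4 (log2 0.98, adjusted p = 0.0132), Emilin1 (0.41, 0.0185), Ltbp2 (0.99, 0.0283) and Fbln5 (0.81, 0.0480), beside 5.69% of all tested genes in either direction (5.86% with C1). The count of 0 therefore depended on that library, and a p above the threshold does not show that the groups were alike.

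Levels were compared between genes as CPM per kb of the longest protein-coding transcript. In Control + Veh the order was Fbln1 (15.4 ± 1.897, mean ± SD, n = 4), Fbln2 (15.04 ± 3.29), Mfap5 (10.6 ± 0.974), Mfap4 (4.84 ± 1.695), Efemp1 (4.18 ± 0.645), Emilin1 (3.58 ± 0.814), Eln (3.43 ± 0.8002), Fbn1 (1.75 ± 0.381), Ltbp2 (0.231 ± 0.122) and Fbln5 (0.197 ± 0.0696). The ranges over libraries overlapped between Fbln1 and Fbln2, Mfap4 and Efemp1, Efemp1 and Emilin1, Emilin1 and Eln, and Ltbp2 and Fbln5, so their ranges did not separate those neighbours. Within a library, however, Efemp1 was above Emilin1 in 4 of 4 and Fbln1 above Fbln2 in 3 of 4, while the other 3 pairs were in this order in 2 of 4. In HFpEF + Veh, Fbln2 (21.9 ± 1.296), Mfap5 (21.9 ± 4.84) and Fbln1 (18.9 ± 1.96) led with neighbouring ranges that overlapped, and Fbln5 (0.486 ± 0.103) and Ltbp2 (0.413 ± 0.0798) stayed last. In HFpEF + TYA-018 the leaders were Fbln1 (17.1 ± 1.73), Fbln2 (15.4 ± 2.48) and Mfap5 (13.8 ± 1.103). By the deposited TPM, which divides by an effective length fitted in each library, Fbln2 (16.5 TPM), Mfap5 (14.4) and Fbln1 (9.96) were again the first 3 in Control + Veh, while Eln dropped to 0.274 TPM. The deposited effective length exceeded the longest annotated transcript for Eln (4.32 times), Fbln5 (2.29 times) and Emilin1 (1.53 times). These 3 also had fractional estimated counts in 12 of 12 libraries. For Mfap5, Efemp1, Fbln2, Mfap4 and Fbln1 the effective length was 0.156, 0.217, 0.325, 0.483 and 0.539 of the longest annotated transcript. The levels of all these members therefore depend on the length used and are uncertain. The cause of these lengths or of the fractional counts was not tested.

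Because the 10 members had fold changes of 1 sign in each of the first comparisons, each was also set against Fbn1 in its own library, a ratio that does not depend on library scaling. Fbln1 relative to Fbn1 was 1.45 ± 0.15 in the controls, 1.02 ± 0.24 in HFpEF + Veh and 1.4998 ± 0.18 with TYA-018 (log2 ratio of CPM, mean ± SD, n = 4), with every TYA-018 library above every HFpEF + Veh library. Emilin1 gave -0.60 ± 0.13, -0.89 ± 0.16 and -0.44 ± 0.14, again without overlap between the last 2 groups. Efemp1 relative to Fbn1 was -1.29 ± 0.31 in Control + Veh and -1.78 ± 0.31 in HFpEF + Veh without overlap, and stayed at -1.76 ± 0.27 after TYA-018. Against controls, the TYA-018 libraries had higher ratios without overlap for Fbln5 (-3.74 ± 0.17 against -4.23 ± 0.19) and Mfap4 (-0.70 ± 0.15 against -1.36 ± 0.17). Each of these 5 differences reached p = 0.0286 in a two-sided exact permutation test, the smallest p that 4 against 4 libraries can give, and an adjusted p of 0.154 over 27 ratio tests, so 0 of 27 passed.

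**Figure D3:**
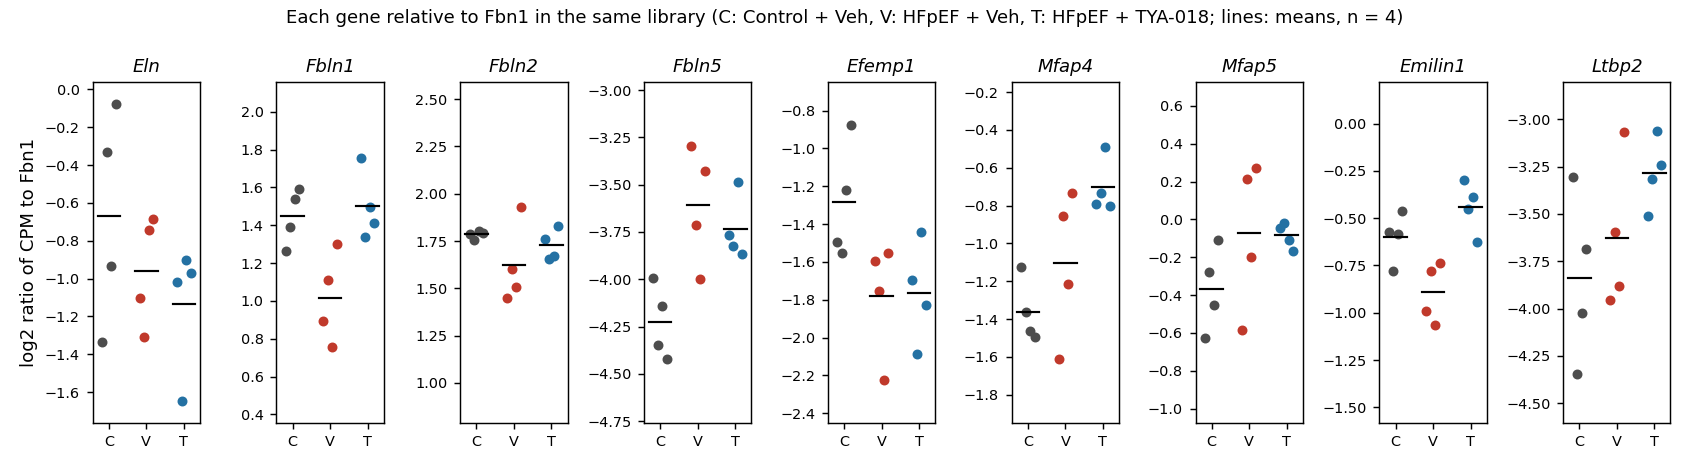
Log2 ratio of CPM to Fbn1 in the same library (vertical axis, panels span equal ranges) for the other 9 elastic fibre genes, with points for libraries and lines for the mean of 4. Fbln1 and Emilin1 are lowest relative to Fbn1 in HFpEF + Veh, Fbln2 changes little between groups, and the TYA-018 libraries of Fbln5 and Mfap4 lie above the controls.

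Within groups, most members went up and down together from mouse to mouse. As a description over the 12 libraries, the deviations of log2 CPM from the group mean gave a median Pearson r of 0.55 over 45 pairs of members, with 36 positive and 27 over 0.5. The points share their library, its scaling and its cell composition. The members' mean deviation was 0.39 in C1 and from -0.18 (T2) to 0.18 (T4) in the other libraries. C1 thus weighs most in that mean, and no r is given without it. Fbln2 followed the mean of the other 9 members most closely (r = 0.87), then Ltbp2 (0.85), Emilin1 (0.84) and Mfap4 (0.81), and Mfap5 least among the positive ones (0.44). Eln was the exception at -0.13: it was below its group mean in C1 (-0.25), where the other 9 members were above theirs, and furthest below in T2 (-0.57). Its most negative pair was Emilin1 (-0.35). T4 was above its group mean for 10 of 10 members. The 5 genes outside the lists whose deviations were most like the members' mean were Reep3 and Bgn (r = 0.96 each), Wasf2 (0.959), Sepp1 (0.955) and Yy1 (0.946), over 12 libraries. Bgn encodes biglycan, a matrix proteoglycan.

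**Figure D4:**
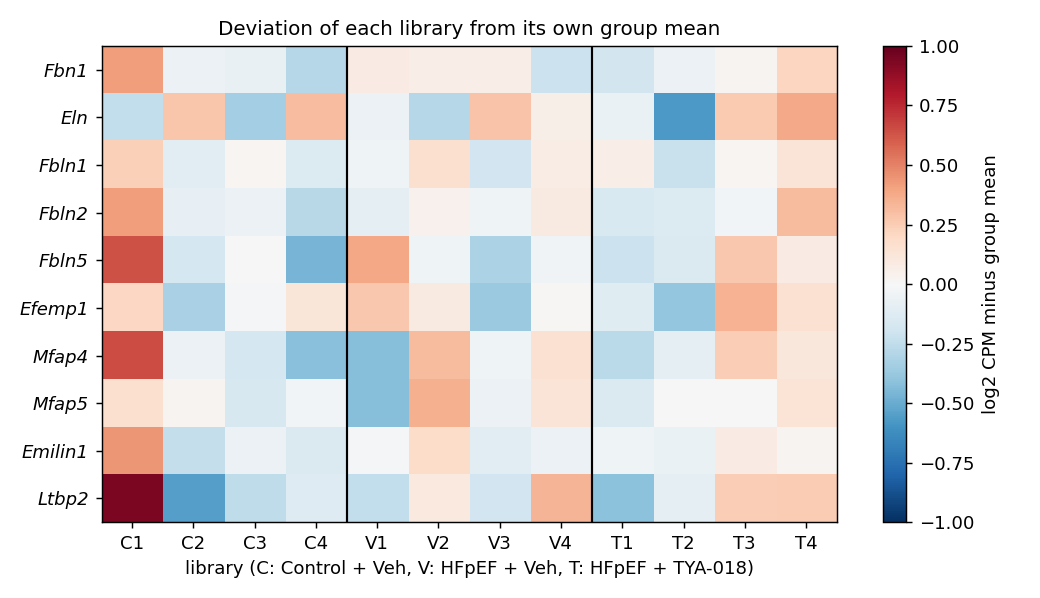
Log2 CPM of each elastic fibre gene (rows) in each library (columns) minus the mean of its own group, in colour from -1 (blue) to 1 (red). C1 is red for 9 of 10 genes and blue for Eln, whose pattern across libraries differs from the others.

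Markers of fibroblasts differed between the groups in the same directions as the members. Of 8 fibroblast markers, edgeR called 4 higher in the model (Pdgfra, Dpt, Col1a1 and Col1a2) and 6 lower after TYA-018, and 8 of 8 were positive in the first and negative in the second, with medians of 0.50 and -0.41. Their summed level ranged from 480 to 699 CPM in Control + Veh, 693 to 969 in HFpEF + Veh and 473 to 667 with TYA-018. The members summed to 187 to 262, 290 to 333 and 206 to 264 CPM in the same groups. Relative to the mean log2 CPM of the fibroblast markers, the mean of the 10 members differed by 0.14 between HFpEF + Veh and Control + Veh and by -0.04 between HFpEF + TYA-018 and HFpEF + Veh. On that relative scale Fbln5 (0.78), Mfap5 (0.46) and Mfap4 (0.42) were higher in the model, Fbln2 was at 0.00, and Efemp1 (-0.33) and Fbln1 (-0.27) were lower. After TYA-018 the members went both ways on it. Fbln1 (0.29), Emilin1 (0.26), Mfap4 (0.21) and Ltbp2 (0.15) were higher than in HFpEF + Veh. Eln (-0.37), Fbln5 (-0.32), Mfap5 (-0.20), Fbn1 (-0.19), Efemp1 (-0.17) and Fbln2 (-0.08) were lower. These differences are descriptions without a test. Adventitial fibroblast markers were called higher in 4 of 6 and lower after TYA-018 in 3 of 6, with sums of 220 to 256, 345 to 426 and 279 to 295 CPM. Smooth muscle markers, of the other main source of elastin in the heart, were called by edgeR in 0 of 6 in the model (2 at an unadjusted p under 0.05, and 1 by DESeq2) and higher in 1 of 6 after TYA-018. Their signs mostly went the other way from the members. In the model 5 of 6 were negative (median log2 -0.23), and after TYA-018 6 of 6 were positive (median 0.21). Their sums overlapped at 283 to 415, 315 to 380 and 322 to 400 CPM.

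Markers of other cell types differed as well. Red cell genes were called higher in 5 of 5 in the model, with sums of 1553 to 2309 CPM in Control + Veh, 4785 to 14139 in HFpEF + Veh and 2295.98 to 3572 with TYA-018, and macrophage genes in 4 of 4 (57 to 68, 87 to 110 and 59 to 69 CPM). After TYA-018, edgeR called lower 5 of 5 red cell genes, 2 of 4 macrophage genes, 2 of 6 endothelial genes and 1 of 4 pericyte genes. In the model, endothelial genes were called higher in 2 of 6 (528 to 659, 699 to 855 and 521 to 697 CPM). Pericyte genes were called higher in 1 of 4 (658 to 730, 796 to 830 and 582 to 702 CPM). That gene, Rgs5, averaged 475, 601 and 443 CPM in the groups. Abcc9 (log2 -0.06), Kcnj8 (-1.40) and Pdgfrb (0.05) were not called in the model. Over all tested genes, 10.9% were called higher in the model and 10.4% lower after TYA-018. Cardiomyocyte genes were called lower in 6 of 8 in the model, while Actc1 was called higher (log2 0.32, adjusted p = 0.0391). After TYA-018, 3 of 8 were called higher (sums of 27490 to 38574, 25485 to 27075 and 29092 to 32001 CPM in the 3 groups). Of the mesothelial genes, 4 of 6 were too low to test (Upk1b, Msln, Lrrn4 and Krt19). Of the 2 tested, Wt1, a marker of the epicardium, was called higher in the model (log2 0.69, adjusted p = 0.00170). Wt1 was called lower after TYA-018 (log2 -0.35, adjusted p = 0.0392). The other, Upk3b, averaged 0.171 to 0.699 CPM in the groups and had the opposite signs. It was not called in the model (log2 -0.43, adjusted p = 0.756) or after TYA-018 (log2 2.00, adjusted p = 0.114). Fat genes were called by edgeR and by DESeq2 in 0 of 3 in the model, with 0 at an unadjusted p under 0.05, and Fabp4 was called lower after TYA-018 (log2 -0.34, adjusted p = 0.0241). Group means of Fabp4 were 665 to 842 CPM, against 0.0636 to 0.147 for Adipoq and 0.0638 to 0.266 for Cidec. Plin1 was too low to test. The fall of Fabp4 is therefore not read as a change of fat. The part of any of these cell types in the members' changes was not tested.

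Enzymes that cross-link the fibre were also called. Of 5 cross-linking enzymes, edgeR called 3 higher in the model and 4 lower after TYA-018. Loxl2, a lysyl oxidase-like enzyme, averaged 8.15 ± 1.93 CPM in the controls, 18.7 ± 1.27 in HFpEF + Veh and 9.79 ± 0.489 with TYA-018 (mean ± SD, n = 4; log2 1.19, adjusted p = 0.000441 in the model; -0.93, 0.00141 after TYA-018). Lox, the founding lysyl oxidase, rose by 0.95 on the log2 scale (adjusted p = 0.0311) and fell to 3.56 ± 1.57 CPM (log2 -1.14, adjusted p = 0.0163). Its rise was not called in edgeR with effective lengths as offset (adjusted p = 0.0910) or by limma on the rescaled TPM (0.0844). V1 (5.24 CPM) lay below C1 (5.45 CPM). Loxl1, the family member tied most closely to elastin, rose (log2 0.61, adjusted p = 0.001095) and fell (log2 -0.36, adjusted p = 0.0163), the latter at 0.24 on log2(TPM + 1), a scale on which all genes had a median of 0.17, and at -0.11 on the rescaled TPM. Loxl3 was called lower after TYA-018 (log2 -0.35, adjusted p = 0.0416) but was positive on log2(TPM + 1) (0.22), on the rescaled TPM (0.05) and with effective lengths as offset (0.11).

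Among 12 other fibrils, microfibril proteins and their binding partners, 11 were tested, and 2 were called higher and 2 lower in the model. Ltbp4, which anchors latent TGF-beta and is needed for elastic fibre assembly, was far more abundant than Ltbp2 by count, at 304 ± 22.03 CPM in the controls, 406 ± 19.2 in HFpEF + Veh and 337 ± 9.21 with TYA-018 (log2 0.42, adjusted p = 0.00148; then -0.27, 0.0144, with 0.04 on log2(TPM + 1) and -0.41 on the rescaled TPM). Adamtsl2, a fibrillin-binding glycoprotein, rose in the model (log2 1.07, adjusted p = 0.000634) and was still above control after TYA-018 (log2 0.90, adjusted p = 0.00439). Fbn2, the second fibrillin, went the other way from Fbn1. It averaged 0.833 ± 0.0482 CPM in the controls, 0.335 ± 0.129 in HFpEF + Veh and 0.647 ± 0.0484 with TYA-018, and was called lower in the model (log2 -1.31, adjusted p = 0.00578) and higher after TYA-018 (log2 0.95, adjusted p = 0.0278). Adamtsl4, which also binds fibrillin, was called lower in the model (log2 -0.31, adjusted p = 0.0271). That call was lost in edgeR with effective lengths as offset (log2 -0.19, adjusted p = 0.556) and in limma on the rescaled TPM (-0.13, 0.661). Efemp2, or fibulin-4, was called in neither comparison (log2 0.17 and -0.26). Over the 34 tested genes of all other elastic fibre lists, 16 were called higher and 3 lower in the model, and 1 higher and 12 lower after TYA-018, of which 1, Loxl3, was positive on the rescaled TPM and with effective lengths as offset. On log2(TPM + 1), 7 of the 12 were positive and 4 of them lay above the median of all genes, which was 0.17 there.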

How the data were processed

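Poly(A) RNA of left ventricle was sequenced by the authors in 12 mice, and the groups were taken from the labels. Per the study's methods, the authors trimmed reads with fastp, quantified them with Salmon 1.6.0 (version also in the submitters' processing notes) against mouse GENCODE transcripts of GRCm38, and summed them per gene with tximport. The submitters' notes list hg38 as the build, and the mouse gene names contradict this. The deposited values were estimated counts per gene, which are fractional for some genes and are not normalized. The authors also deposited TPM and, as another kind of value, effective lengths in bases. The labels and the methods give different read layouts, which the files do not settle.

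Estimated counts were rounded, and edgeR 4.0.16 under R 4.3.3 tested them (filterByExpr, TMM, quasi-likelihood F tests, two-sided) in 1 fit of 12 libraries with 9 residual degrees of freedom. This left 14333 genes with 99.98% of counts, over which p-values were adjusted (Benjamini-Hochberg, called under 0.05). CPM are scaled by TMM. Ratios to Fbn1 were compared by exact permutation tests in scipy 1.17.1. On simulated counts for HFpEF + Veh against Control + Veh (14333 genes), 81 of 100 genes changed 2-fold and 54 of 100 changed 1.5-fold were recovered, with 9 false calls. Alternatives were DESeq2 1.42.0, limma 3.58.1 on log2(TPM + 1), log2(TPM + 0.1) and log2(TPM + 1) after rescaling TPM over detected nuclear protein-coding genes, other scalings and filters, effective lengths as an offset, and leaving out each library. All 10 members were named, and genes outside them came from lists of elastic fibre genes and cell markers or were the 5 most alike in their deviations. The members and lists were chosen with earlier results of these data known. Replicates are different mice by their animal numbers. Coordinates are from GENCODE M21 (GRCm38), matched by symbol.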

Additional observations from a re-analysis of the deposited data

Results flagged for a closer look

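Fbn1 in HFpEF + Veh had 1 library apart from the rest. V4 held 29.3 CPM, while the next lowest of that group held 35.6 CPM, a gap of 0.943 of the group's whole range. V4 still lay above every library of both other groups, and the calls of Fbn1 were kept without it. The threshold that this gap exceeded is passed by chance in about 1 in 20 groups, and 30 groups of 4 libraries (10 genes in 3 groups) were examined.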

How the results depend on the processing

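The count of members called in HFpEF + Veh against Control + Veh, 6 in edgeR, was 1 (Mfap5) with limma on log2(TPM + 1) and 1 on log2(TPM + 0.1), 4 on TPM rescaled over detected nuclear protein-coding genes, 5 with effective lengths as offset and 8 with DESeq2, and ranged from 4 to 8 when each library was left out. In HFpEF + TYA-018 against HFpEF + Veh the count of 6 became 2 (Fbn1 and Mfap5) with effective lengths as offset. It became 0 on log2(TPM + 1), 0 on log2(TPM + 0.1) and 1 (Mfap5) on the rescaled TPM. It ranged from 2 to 6 when each library was left out (3 without V2, 2 without V4, T1 or T2). The share of all tested genes called was 19.3% with all libraries, 14.4% without V2, and 10.4% to 13.6% without V4, T1 or T2. In HFpEF + TYA-018 against Control + Veh the count of 0 became 1 (Mfap5) with only the 2 groups in the fit. It became 1 (Mfap4) with DESeq2, 1 (Mfap5) without V1 and 4 without C1, with a range of 0 to 4. The shares of all tested genes called in these 4 settings were 3.59%, 10.6%, 5.50% and 5.69%. On log2(TPM + 1) and log2(TPM + 0.1), directions reversed after TYA-018 for Fbln1 (0.33 and 0.35), Emilin1 (0.16 and 0.28), Fbln2 (0.016 on both) and Mfap4 (0.014 and 0.020), where all tested genes had medians of 0.17 and 0.34, and in the model for Efemp1 (-0.13 and -0.15); on the rescaled TPM none of these reversed. Between TYA-018 and control, leaving out 1 library moved Fbn1 from -0.0056 (without C4) to 0.24 and Fbln2 from -0.081 (without T4; -0.053 without C4) to 0.20. Of the other fold changes, 538 kept direction and side of the threshold, 67 lost a call and 12 gained one. Why fewer members were called on the TPM scales was not tested. A pseudocount of 1 also compresses Fbln5 and Ltbp2, whose TPM are far below it. No paired analysis was possible because the groups share no animal or replicate number. With 4 mice a group, the smallest exact p is 0.0286, and changes near 1.5-fold are often missed.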

Other observations

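Genes that sense, load or degrade the elastic fibre were counted from the lists used above. Of 6 integrin chains that bind fibrillin, fibulin or latent TGF-beta, edgeR called 3 higher in the model, namely Itgb1 (log2 0.47, adjusted p = 0.00256), Itga5 (0.24, 0.0169) and Itgb3 (0.61, 0.0424), and 2 lower after TYA-018, Itgb1 (-0.27, 0.03496) and Itga5 (-0.19, 0.0465), which were at 0.01 and 0.18 on log2(TPM + 1), a scale on which all genes had a median of 0.17, and at -0.44 and -0.19 on TPM rescaled over detected nuclear protein-coding genes. Of 6 growth factors stored on microfibrils, 4 were called higher in the model (Tgfb1, Tgfb2, Tgfb3 and Bmp2) and 3 lower after TYA-018. The 4 rises stayed positive but were not called by edgeR with effective lengths as offset (adjusted p 0.0932 to 0.302). Limma on the rescaled TPM did not call them either (adjusted p 0.0979 to 0.313). These 2 settings called 10.1% and 7.91% of all genes, against 21.2% in the main edgeR fit. Of the 3 lower after TYA-018, Tgfb1 and Bmp4 were at 0.28 and 0.02 on log2(TPM + 1) and at -0.08 and -0.41 on the rescaled TPM. Tgfb1 averaged 31.4 ± 2.14 CPM in the controls, 37.95 ± 0.1601 in HFpEF + Veh and 30.9 ± 2.16 with TYA-018 (mean ± SD, n = 4). Bmp4, a bone morphogenetic protein, was not called in the model (log2 -0.06, adjusted p = 0.644) and was called lower after TYA-018 both against HFpEF + Veh (-0.43, 0.00721) and against Control + Veh (-0.49, 0.0102).

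Of 6 tested proteases that can degrade elastin, edgeR called 4 higher in the model and 1 lower. Mmp2, a gelatinase of fibroblasts, averaged 21.7 ± 7.48 CPM in the controls, 40.3 ± 5.800 in HFpEF + Veh and 25.01 ± 2.23 with TYA-018, and Ctss, a cathepsin of macrophages, 6.29 ± 1.67, 14.05 ± 3.303 and 8.54 ± 1.11 CPM. Both were called higher in the model and lower after TYA-018. The fall of Mmp2 was not called in edgeR with effective lengths as offset (adjusted p = 0.0608). Limma on the rescaled TPM called neither fall (adjusted p 0.138 for Mmp2 and 0.0744 for Ctss). The macrophage elastase Mmp12 (log2 1.66, adjusted p = 0.0164) and Ctsk (0.69, 0.0334) were called higher in the model, and Mmp9 was called lower (-1.37, 0.0262) at under 1 CPM on average in every group. Mmp12 was also low, at 0.349, 1.11 and 0.541 CPM on average, with V1 (0.550) below C1 (0.556). With effective lengths as offset Mmp12, Ctsk and Mmp9 were not called (adjusted p 0.296, 0.0517 and 0.0609). Limma on the rescaled TPM did not call them either (adjusted p 0.379, 0.0671 and 0.0547). Neutrophil elastase, Elane, was too low to test.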
